A study of Mus musculus with 12 samples.

Results

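The genes examined were 8 genes of antigen presentation by major histocompatibility complex (MHC) class II in monocytic myeloid-derived suppressor cells (M-MDSCs) of the mouse bone marrow. They were H2-Aa, H2-Ab1, H2-Eb1, H2-DMa, H2-DMb1, Cd74, Ciita and Cd86, chosen by name for their function, and each had 1 row among the 23420 genes of the deposited count table. All 8 passed the filter on low counts and were among the 9742 genes tested. Bulk RNA sequencing was performed on bone marrow cells of male C57BL/6JNIA mice, for which no transgene or treatment is named. The aged group comprised 6 mice of 24 months and the young group 6 mice of 6 months, with 1 library per mouse. The cells had been sorted as CD11b+Ly6G-Ly6Chi, so each library was a gated population and not a single cell type shown to be pure. The question addressed was how the expression of class II presentation genes in this gate differed between the ages.

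MHC class II molecules are pairs of an alpha and a beta chain that carry peptides to the cell surface, where CD4+ T cells read them. The invariant chain, encoded by Cd74, occupies the groove of newly made pairs until proteases in endosomes cut it away. H2-M, made of H2-DMa and H2-DMb, then exchanges its last fragment for peptide. The transactivator CIITA switches these genes on together, and CD86 supplies the costimulatory signal that a T cell needs beside the peptide. Dendritic cells, B cells and macrophages are known for high class II expression, and monocytes acquire it as they differentiate. C57BL/6 mice lack a working alpha chain of I-E, so their I-E beta chain H2-Eb1 has no partner at the surface.

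The libraries held 8737941 to 16300374 counted fragments in the aged group (median 10384679) and 4613239 to 9079237 in the young group (median 8503571). Young replicates 5 and 6 stood apart from the other 4 young libraries, at a chi-square per gene of 22 to 38.1 against them and 1.68 to 5.74 among those 4. Aged pairs ranged from 5.22 to 39.0, a measure that also grows with depth. Without young replicates 5 and 6, a choice made after seeing the data, 3157 genes were called and 4 of the 8 genes examined, namely H2-Aa, H2-Ab1, H2-Eb1 and Cd74. A count of 3 corresponded to 0.188 to 0.350 CPM (counts scaled to the size of each library) in aged and 0.306 to 0.643 CPM in young mice. The numbers in the alignment file names ran from 11 to 16 in the young and from 17 to 26 in the aged group, so any order of preparation and age cannot be told apart. The summed CPM of 8 classical monocyte genes was between 4446 and 6419 in aged and between 4805 and 5876 in young mice. Most of this sum was Chil3, at a mean of 4362 CPM in aged and 4288 CPM in young mice, while the chemokine receptor gene Ccr2 was at 31.2 and 37.1 CPM, F13a1 at 21.0 and 26.9 CPM and Vcan at 5.57 and 3.63 CPM. Ly6c2, which encodes the sorted surface antigen, was higher in aged mice by 0.54 on the log2 scale (adjusted p = 0.00265, edgeR quasi-likelihood test). The sum of 8 neutrophil genes was 119905 to 142801 CPM in aged and 76478 to 120094 CPM in young mice. Young replicates 5 and 6 were lowest, at 76478 and 77131 CPM, and the other young mice were at 102759 CPM or more. Of the 8 genes, 5 were called higher in aged mice, beside 22.4% of all genes tested. S100a8, which monocytes also express, had a mean of 35816 CPM in aged and 21062 CPM in young mice. The neutrophil granule genes were also abundant, with means of 39629.7 and 30944 CPM for Ngp, 20903 and 21723 CPM for Ltf, 4654 and 4293 CPM for Mmp8 and 4432 and 3196 CPM for Camp in aged and young mice. The libraries labelled M-MDSC thus held abundant granule transcripts at both ages, and their part in the class II result was not tested.

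Of the 8 class II presentation genes, 6 were called higher in the libraries of aged mice at an adjusted p below 0.05 (edgeR), H2-DMb1 and Ciita did not pass, none was called lower, and the median log2 fold change was 1.54. With limma-voom the count fell from 6 to 1. Each of the 8 fold changes behind the median was smaller without aged replicate 1, for example 1.50 (log2) for H2-Aa and 0.54 for H2-DMa. All 9 tested resident macrophage markers were also called higher, with a sum of up to 1130.0 CPM in the aged mouse that was highest for the class II genes, and their part in this result was not tested. Over all genes tested, 22.4% were called higher and 23.0% lower, and the median log2 fold change was 0.0062. With library totals in place of scaled libraries, the calls over all genes shifted from 2185 higher and 2240 lower to 1682 higher and 2762 lower. Under that scaling 5 of the 8 genes were called, and H2-DMa was not (0.86, adjusted p = 0.0727, edgeR). In none of the 8 did the values of the ages separate fully, whereas 21.8% of all genes tested had values that did not overlap, 9.68% with every aged value above every young value. A call with a fold of at least 2 was made for H2-Aa, H2-Ab1, H2-Eb1 and Cd74, beside 2.07% of all genes tested. In bulk libraries, more cells of a type and more RNA per cell cannot be told apart, nor can fewer cells and less RNA. The p-values measure the spread between these mice.

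The largest differences were in the chains of the class II molecules themselves. H2-Aa encodes the alpha chain of I-A, the class II molecule that C57BL/6 mice display, and lies on the minus strand at chr17:34282751-34287771 (mm10, 5 exons). Its level was 11.8, 33.8 and 206 CPM (lowest, median and highest) in aged mice and 10.8, 11.7 and 15.1 CPM in young mice. In 5 of the 6 aged mice H2-Aa was above the highest young mouse, and the remaining aged mouse lay within the young range. The mean was 63.3 ± 73.6 CPM (SD, n = 6) in aged and 12.2 ± 1.57 CPM (SD, n = 6) in young mice. The log2 fold change was 2.36 with a standard error of 0.582 (adjusted p = 0.00447, edgeR), a fold of 5.14. The young mice were alike, with a coefficient of variation (CV) of 12.9%, close to the median over all genes of 14.7%. The aged mice were not, with a CV of 116% beside a median over all genes of 13%.

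H2-Ab1, the beta chain that pairs with H2-Aa, lies at chr17:34263227-34269418 on the plus strand (6 exons). It measured 7.95, 29.4 and 163 CPM (lowest, median and highest) in aged mice and 9.02, 10.2 and 12.4 CPM in young mice. Again 5 aged mice exceeded all young mice, while the sixth was below them all. The log2 fold change was 2.30 ± 0.585 (SE; adjusted p = 0.00548, edgeR). H2-Eb1, the beta chain of I-E, lies at chr17:34305867-34316674 on the plus strand (6 exons) and was at 8.78, 28.7 and 146 CPM in aged and 5.09, 9.34 and 12.5 CPM in young mice. The pattern was that of the I-A chains, with 5 aged mice above the young range and a log2 fold change of 2.39 ± 0.580 (SE; adjusted p = 0.00409, edgeR). H2-Ea-ps, the broken alpha chain gene of I-E in this strain, had 1 count in 1 young mouse and 0 in the other 11 libraries. H2-Eb2, a close relative of H2-Eb1, had at most 8 counts in any mouse and was not tested.

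Aged replicate 1 held the highest level of each of the 3 chains. Without it the log2 fold changes fell to 1.50 for H2-Aa (adjusted p = 0.00650, edgeR), 1.48 for H2-Ab1 and 1.61 for H2-Eb1, and each remained called. The calls of these chains were lost with limma-voom, which gave log2 fold changes of 1.60 (adjusted p = 0.0576), 1.52 (adjusted p = 0.0785) and 1.70 (adjusted p = 0.0539).

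Class II promoters carry conserved elements known as the X box and the Y box, to which the RFX and NF-Y complexes bind and on which CIITA acts. The stretches around their cores are shown because the H2-Aa, H2-Eb1 and H2-DMb1 genes share this layout. The sequences are from RefSeq (GRCm38.p6), 5′ to 3′ on the strand of the gene, and capitals mark CTNGNAAC as the core of the X box and TGATTGG as the core of the Y box.
H2-Aa: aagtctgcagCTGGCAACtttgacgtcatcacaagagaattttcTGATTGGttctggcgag
H2-Eb1: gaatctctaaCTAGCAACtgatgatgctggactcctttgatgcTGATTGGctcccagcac
H2-DMb1: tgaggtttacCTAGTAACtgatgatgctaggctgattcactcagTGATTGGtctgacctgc

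These lie at chr17:34287857-34287917 on the minus strand for H2-Aa, at chr17:34305763-34305822 for H2-Eb1 and at chr17:34153084-34153144 for H2-DMb1, the latter 2 on the plus strand. The X core began 84, 94 and 97 bases before the RefSeq start site of H2-Aa, H2-Eb1 and H2-DMb1, and the Y core followed 34, 33 and 34 bases after it. The RefSeq start of H2-Aa, at 34287823, lies 52 bases upstream of the end of the gene given above from the deposited table, while the other 2 starts are the same. Both motifs were searched on both strands of the 250 bases before each start, and they do not overlap each other. CTNGNAAC was in 10.9% of 32817 promoter windows and TGATTGG in 7.22%. The order X then Y on 1 strand, 15 to 45 bases apart, was in 26 windows (0.0792%) of 23 genes. H2-Ob, the beta chain of the H2-M inhibitor H2-O, was also among these genes. Neither of the 2 H2-DMa windows held either motif, which says only that these letters are not in that window. The set of promoter windows used here held 4 of the 8 genes, and both motifs were chosen after the windows had been seen.

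Cd74, which encodes the invariant chain, was the most abundant of the 8 transcripts and was higher in aged mice. The gene lies at chr18:60803849-60812652 on the plus strand (9 exons). Its level was 36.3, 84.0 and 662 CPM (lowest, median and highest) in aged mice and 35.7, 39.5 and 54.6 CPM in young mice. The same 5 aged mice as for H2-Aa exceeded every young mouse and the sixth was at the young level. The mean was 189 ± 240.0 CPM (SD, n = 6) in aged and 42.3 ± 7.32 CPM (SD, n = 6) in young mice, and the log2 fold change came to 2.15 ± 0.581 (SE; adjusted p = 0.00777, edgeR). Cd74 came to 1.14 (log2) when aged replicate 1 was dropped, and the call held (adjusted p = 0.0145, edgeR). It was not called by limma-voom (1.39, adjusted p = 0.0569).

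The H2-M genes had smaller fold changes. H2-DMa, the alpha chain of this peptide exchange factor, lies at chr17:34122832-34139101 on the plus strand (6 exons) and measured 3.74, 6.94 and 19.6 CPM (lowest, median and highest) in aged mice. The young mice were at 3.58, 4.28 and 6.62 CPM, and 3 aged mice exceeded them all. Its log2 fold change was 0.93 ± 0.349 (SE; adjusted p = 0.0402, edgeR). This call stood near the threshold, since leaving out aged replicate 1, 2 or 6 or young replicate 1, 2, 6, 9 or 10 in turn ended it. Dropping aged replicate 1 brought H2-DMa to 0.54 (log2), and it stayed positive in each of these fits. Without young replicates 5 and 6 it was 1.07 and not called (adjusted p = 0.0670, edgeR).

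H2-DMb1, a beta chain of H2-M, lies at chr17:34153191-34160229 on the plus strand (6 exons). It was at 3.05, 4.40 and 14.5 CPM (lowest, median and highest) in aged and 2.14, 2.87 and 4.48 CPM in young mice. The difference of 0.91 ± 0.373 (log2, SE) missed the threshold (adjusted p = 0.0580, edgeR) and passed it without aged replicate 4, 5 or 7, and also with DESeq2 (0.94, adjusted p = 0.0331). H2-DMb1 has a near-identical neighbour, H2-DMb2, whose log2 fold change was 0.41 (adjusted p = 0.127, edgeR). Reads that fit both copies may have been dropped or split, so the levels of both are uncertain. H2-Oa and H2-Ob, the chains of the inhibitor H2-O, had at most 24 and 8 counts in any mouse and were not tested.

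Ciita, the transcriptional coactivator of the class II genes, did not pass the test. The gene lies at chr16:10480072-10527564 on the plus strand (21 exons) and was near the detection limit, with 6 to 72 counts in aged and 4 to 25 counts in young mice. Levels were 0.554, 1.48 and 8.03 CPM (lowest, median and highest) in aged mice and 0.781, 1.05 and 2.60 CPM in young mice. The ages overlapped widely and 2 aged mice were above the young range. The log2 fold change of 0.68 ± 0.562 (SE; adjusted p = 0.340, edgeR) turned to -0.09 without aged replicate 1 (adjusted p = 0.881). Without young replicates 5 and 6, which alone among the young exceeded 1.16 CPM, it was 1.37 (adjusted p = 0.144, edgeR). No difference in Ciita was detected, at few counts and a wide spread between mice.

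Cd86, the costimulatory ligand of CD28, was higher in aged mice by a smaller fold and with less spread than the chains. The gene lies at chr16:36603869-36666077 on the minus strand (8 exons). It was at 7.67, 10.8 and 16.7 CPM (lowest, median and highest) in aged mice and 4.50, 5.79 and 8.76 CPM in young mice. The aged CV of 29.2% was near the young CV of 25.3%, and 4 aged mice were above the young range. The log2 fold change was 0.75 ± 0.199 (SE; adjusted p = 0.00688, edgeR). Cd86 remained called when any of the 12 mice was left out in turn, with log2 fold changes from 0.59 to 0.87, and it was the only 1 of the 8 genes called by limma-voom (0.70, adjusted p = 0.0124). Leaving out young replicates 5 and 6 together ended its call (0.62, adjusted p = 0.0539, edgeR).

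**Figure D1:**
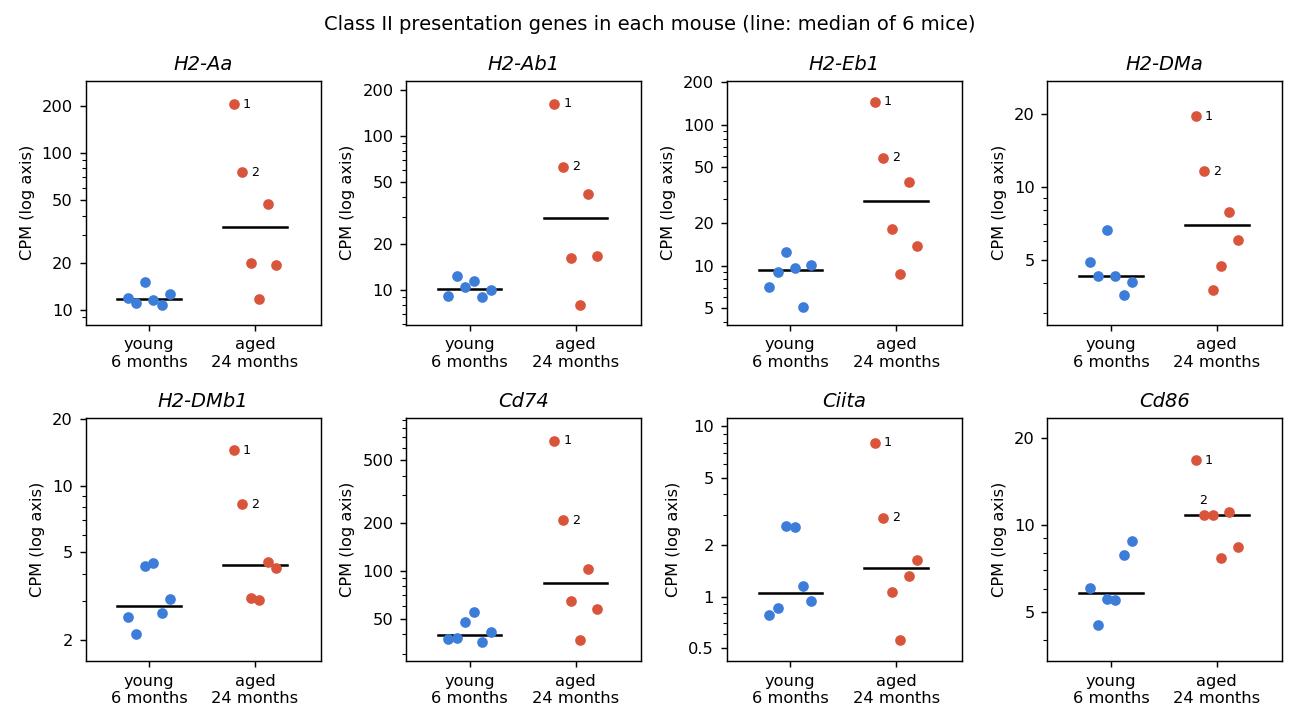
CPM of the 8 class II presentation genes on log axes, with a point per mouse, a line at the median of each age and the numbers of aged replicates 1 and 2. H2-Aa spans 11.8 to 206 CPM in aged mice and 10.8 to 15.1 CPM in young mice, and aged replicate 1 is the highest mouse in every panel.

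Per kilobase of exon the order of the genes was nearly the same at both ages. In young mice the mean level was 29.9 CPM per kilobase for Cd74, 11.4 for H2-Aa, 8.73 for H2-Ab1 and 5.34 for H2-Eb1. In aged mice the same order of means read 134 CPM per kilobase for Cd74, 59.2 for H2-Aa, 43.2 for H2-Ab1 and 28.4 for H2-Eb1. Aged replicate 1 raised these means, and the aged medians were lower, at 59.3, 31.6, 24.7 and 17.2. Each of these steps held in 6 of 6 mice of each age, so the invariant chain transcript exceeded that of each chain in every mouse. H2-DMa, H2-DMb1 and Cd86 were not ordered, with young means of 2.78, 2.50 and 2.51 CPM per kilobase and aged means of 5.39, 4.90 and 4.30, and each neighbour exceeded the next in 3 to 5 of 6 mice. Ciita was last in every mouse, at 0.260 CPM per kilobase in young and 0.454 in aged mice.

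No difference between the ages was detected in the proportions of partner genes. The log2 ratio of H2-Aa to H2-Ab1 was 0.31 ± 0.143 (SD, n = 6) in aged and 0.22 ± 0.256 in young mice, a difference of 0.08 (exact two-sided permutation test, p = 0.511, adjusted over 4 ratios 0.681). The log2 ratio of H2-DMa to H2-DMb1 was 0.52 ± 0.174 in aged and 0.54 ± 0.383 in young mice (exact p = 0.896, adjusted 0.896). The log2 ratio of H2-Ab1 to Cd74 was -1.83 ± 0.317 in aged and -2.01 ± 0.227 in young mice (exact p = 0.303, adjusted 0.606). None of these differences exceeded the spread between mice, and the smallest p that the exact test allows here is 0.00216. The log2 ratio of Cd86 to Cd74 was -3.39 ± 1.17 in aged and -2.74 ± 0.474 in young mice, a difference of -0.66 (exact p = 0.258, adjusted 0.606) that was -0.27 without aged replicate 1. It ranged from -5.30 to -2.24 among aged mice and from -3.30 to -2.18 among young mice.

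The aged mice ranked alike for nearly all 8 genes. Aged replicate 1 was the highest aged mouse for all 8, aged replicate 2 was next for 7, and aged replicate 5 was the lowest for 7. In aged replicate 1 the level over the young mean was 16.9-fold for H2-Aa, 15.6-fold for H2-Ab1, 16.4-fold for H2-Eb1, 15.6-fold for Cd74, 4.25-fold for H2-DMa, 4.52-fold for H2-DMb1, 5.42-fold for Ciita and 2.63-fold for Cd86. In aged replicate 2 it was 6.21-fold for H2-Aa, 4.96-fold for Cd74 and 1.70-fold for Cd86. In aged replicate 5 it was 0.971-fold for H2-Aa, 0.858-fold for Cd74 and 1.20-fold for Cd86. H2-Ab1 of aged replicate 5, at 0.763-fold, was below every young mouse, while the chains of aged replicate 1 were more than 10 times the young mean.

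Markers of other cells moved with these genes. All 9 tested resident macrophage markers, which include the complement genes C1qa, C1qb and C1qc and the receptors Mrc1, Cd163 and Mertk, passed the test with higher levels in aged mice (median log2 fold change 2.51). The other 2 of the 11 were Spic, with 11 to 86 counts in aged and 4 to 6 in young mice, and Timd4, with 2 to 52 and 0 to 4 counts. The summed level of the 11 was 89.2 to 1130.0 CPM in aged mice (median 212) and 76.5 to 95.6 CPM in young mice (median 80.1). Aged replicate 1 had the highest sum, aged replicate 2 the next at 374 CPM, and aged replicate 5 the lowest, as for H2-Aa and Cd74. 
Aged replicates 1 and 2 had the highest marker sums and also the highest H2-Aa and Cd74. Without them, a choice made after seeing the data, the log2 fold changes were 1.02 for H2-Aa (adjusted p = 0.0174), 1.0 for H2-Ab1 (adjusted p = 0.0324), 1.15 for H2-Eb1 (adjusted p = 0.0210), 0.63 for Cd74 (adjusted p = 0.0402) and 0.56 for Cd86 (adjusted p = 0.0321), all by edgeR. These 5 genes remained called. H2-DMa, at 0.28 (adjusted p = 0.338), did not, and Ciita was at -0.42 (adjusted p = 0.441). The marker sums of aged replicates 4, 6 and 7 were 142, 220 and 204 CPM, still above all young mice, so these values do not separate the class II genes from the markers, whose part was not tested.

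**Figure D2:**
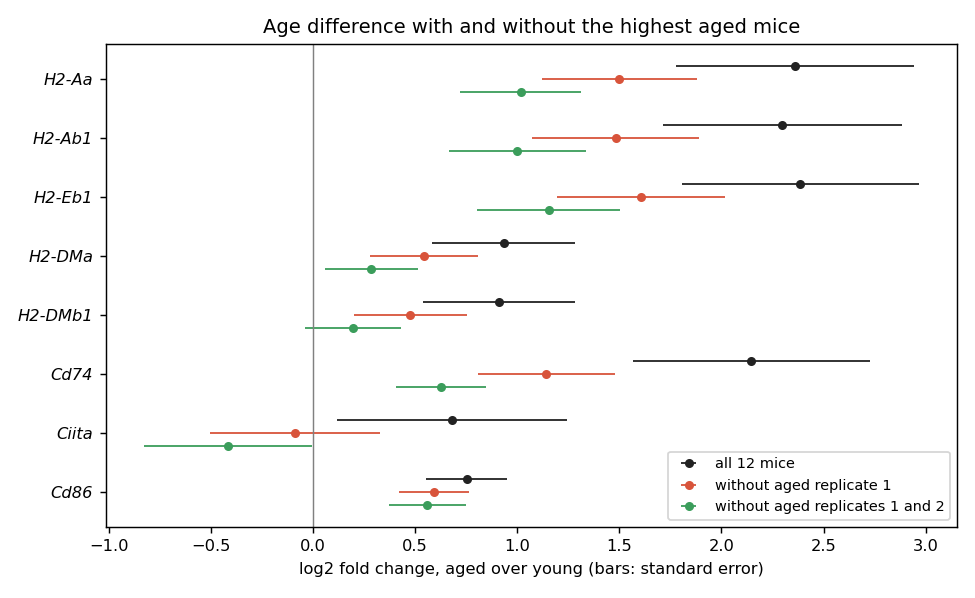
Log2 fold change, aged over young, of the 8 genes with standard errors as bars, from edgeR with all 12 mice, without aged replicate 1 and without aged replicates 1 and 2. The chains and Cd74 move toward 0 but stay positive (H2-Aa 2.36, 1.50 and 1.02), Cd86 moves least (0.75, 0.59 and 0.56), and Ciita crosses 0.

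**Figure D3:**
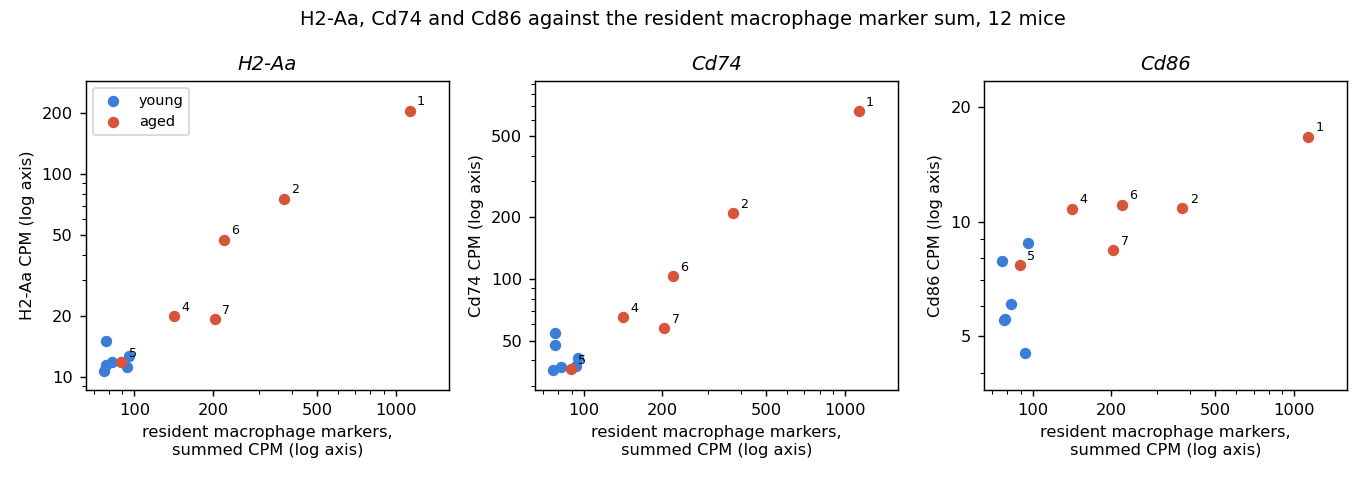
H2-Aa, Cd74 and Cd86 in CPM against the summed CPM of 11 resident macrophage markers, 1 point per mouse on log axes, with the aged replicates numbered. The young mice lie between 76.5 and 95.6 CPM on the marker axis beside aged replicate 5, and aged replicate 1 lies at 1130.0 CPM with the highest H2-Aa, Cd74 and Cd86.

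Most markers of the other professional antigen presenting cells fell below the filter. Of 12 conventional dendritic cell markers 2 passed the filter, of which Clec9a was lower in aged mice by 2.45 on the log2 scale (adjusted p = 2.9e-05, edgeR) and Itgax was at 0.05 (adjusted p = 0.850). Zbtb46, a transcription factor gene of these cells, Xcr1, a receptor gene of 1 subset, and Ccr7, which other lymphoid and migratory cells also express, had at most 3 counts in every mouse. The markers under the filter went in both directions. Cadm1 was at 6.12 ± 6.12 CPM in aged and 0.645 ± 0.326 CPM in young mice (SD, n = 6 each). Clec10a was at 2.02 ± 2.35 and 0.506 ± 0.323 CPM, and the values of the ages overlapped for both. Lower means in aged mice were those of Dpp4 (0.356 aged and 1.10 CPM young) and Flt3 (0.213 and 0.371 CPM), among others. Batf3 (0.270 and 0.345 CPM) and Cd209a (0.086 and 0.263 CPM) were also lower. The summed level of the list was 9.98 to 41.8 CPM in aged and 15.9 to 24.1 CPM in young mice, with aged replicate 1 highest and aged replicate 5 lowest. Of 9 B cell markers only Cd79b was tested (log2 fold change 1.10, adjusted p = 0.0568, edgeR). The B cell sum was 16.8 CPM in aged replicate 1, 2.68 to 7.11 CPM in the other aged mice and 3.64 to 5.33 CPM in young mice. The part of either list in the class II result was not tested.

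Few genes of the remaining lists were called higher. Plasma cell markers summed to 8.65 to 74.6 CPM in aged and 9.65 to 35.8 CPM in young mice, with 1 of 5 tested and none called. Aged replicates 1 and 2 had the highest sums, at 74.6 and 51.7 CPM, and the other aged mice were at 26.1 CPM or less. The part of this list in the class II result was not tested. Of the plasmacytoid dendritic cell markers 2 of 7 were tested and 1, Runx2, was lower. The sums were 66.0 to 82.7 CPM in aged and 78.5 to 100.1 CPM in young mice. Most of each sum was Runx2, at means of 63.4 and 77.0 CPM, and Siglech had at most 3 counts in every mouse. Nonclassical monocyte markers summed to 949 to 1048 CPM in aged and 1024 to 1127 CPM in young mice, with 1 of 6 higher and 4 lower. T and NK cell markers summed to 7.52 to 12.6 CPM in aged and 6.21 to 11.5 CPM in young mice with none called. None of the 6 erythroid genes in the table passed the filter, and Hba-a1 and Hba-a2 had 0 counts. The erythroid sum was 0.855 to 7.58 CPM in aged and 0.116 to 0.643 CPM in young mice, with every aged mouse above every young mouse and aged replicate 1 highest, and its part in the class II result was not tested.

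The genes whose level followed the chains most closely from mouse to mouse were Mrc1, Itgad, Vcam1, Pea15a and Axl. Likeness was Pearson's r between a gene and the mean of H2-Aa, H2-Ab1, H2-Eb1 and Cd74, on log2 CPM with the mean of each age removed, over 12 mice. All points share the same libraries, and r is given as a description. It was 0.983 for the mannose receptor gene Mrc1, 0.974 for the integrin gene Itgad, 0.968 for the adhesion gene Vcam1, 0.958 for Pea15a and 0.949 for the receptor kinase gene Axl. Mrc1, Vcam1 and Axl belong to the resident macrophage list. Without aged replicates 1 and 5, the 2 mice farthest from the median, r was 0.933, 0.906, 0.871, 0.858 and 0.779. Each of the 5 was also higher by the edgeR call, at log2 fold changes of 2.51, 3.56, 2.0, 1.30 and 2.41. Without aged replicate 1 these were 1.46, 2.39, 1.02, 0.71 and 1.59, and Pea15a was no longer called (adjusted p = 0.0692, edgeR), as also without young replicates 5 and 6 (1.34, adjusted p = 0.0795). By the same measure r was 0.911 for H2-DMa, 0.898 for H2-DMb1 and 0.860 for Ciita over 12 mice, and 0.833, 0.755 and 0.539 over the 10. Cd86 followed least, with 0.643 over 12 mice and 0.127 over the 10, so its level among these mice did not track the chains once those 2 were left out.

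In the wider pathway, calls were made in both directions. Of 35 further pathway genes 28 were tested, of which 9 (32.1%) were higher, 6 (21.4%) were lower and 13 were not called, with a median log2 fold change of 0.20. Over all genes tested these shares were 22.4% and 23.0%. Of 9 enzymes that degrade the invariant chain or prepare antigen, 7 (77.8%) were called higher and none lower, with a median of 0.45. Lgmn, the asparaginyl endopeptidase of lysosomes, was at 22.6 CPM in aged and 3.64 CPM in young mice and differed by 2.54 on the log2 scale (adjusted p = 0.00654, edgeR). The aged mice spread from 3.51 to 79.8 CPM and overlapped the young range of 1.56 to 5.40 CPM, and without aged replicate 1 the difference was 1.54 and the call held. Ctss, the cathepsin that completes invariant chain cleavage in antigen presenting cells, was higher by 0.95 (log2, adjusted p = 0.0167, edgeR), with an overlap of the ages and a value of 0.59 without aged replicate 1. Ctsb, Ctsd, Ctsh, Ctsz and Sppl2a were higher by 0.21 to 0.61, of which Ctsh and Ctsz lost their call without aged replicate 1. Without young replicates 5 and 6, Ctsb (0.50, adjusted p = 0.0530, edgeR), Ctsh (0.14) and Ctsz (0.26) were not called, which left 4 of the 9. Ctsl, at 0.22 (adjusted p = 0.267), and Ifi30, the lysosomal thiol reductase, at 0.52 (adjusted p = 0.160), were not called.

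Of 7 genes beside Ciita whose products act on class II promoters, 3 were called, beside 45.4% of all genes tested. Nfyb was higher (0.19, adjusted p = 0.0202, edgeR), Nfya and Creb1 were lower and 4 were not called. Without young replicates 5 and 6 Nfyb was not called (0.15, adjusted p = 0.0978, edgeR). Nfya, a subunit of the complex that binds the Y box, had a mean of 57.5 CPM in aged and 90.1 CPM in young mice with no overlap (log2 fold change -0.65, adjusted p = 0.000127, edgeR). The RFX genes, whose products bind the X box, were at -0.16 for Rfx5 (adjusted p = 0.304), -0.26 for Rfxap (adjusted p = 0.109) and 0.13 for Rfxank (adjusted p = 0.266), and Nfyc was at -0.05 (adjusted p = 0.673, edgeR).

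Interferon gamma is the main known inducer of Ciita. Of 6 genes of its signalling, the receptor chain gene Ifngr1 was higher (0.49, adjusted p = 0.00108, edgeR), and the kinase genes Jak2 (-0.31, adjusted p = 0.00186) and Jak1 were lower. The receptor chain gene Ifngr2, the transcription factor gene Irf1 and the feedback inhibitor Socs1 were not called, with log2 fold changes of 0.01, -0.01 and 0.20. The median of the list was 0.00084.

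None of the other tested costimulatory and turnover genes was called higher. Cd80, the other ligand of CD28, was lower, at 9.46 CPM in aged and 16 CPM in young mice with no overlap (log2 fold change -0.76, adjusted p = 0.000237, edgeR). Icosl was also lower, and Cd274, which encodes the inhibitory ligand PD-L1, was at 0.39 (adjusted p = 0.151, edgeR). Tnfsf4 had 0 counts in all 12 mice, and Cd40, Pdcd1lg2 and Tnfsf9 had at most 12, 5 and 5 counts in any mouse. March1 and March8, ligases that remove class II or CD86 from the surface, were at 0.22 (adjusted p = 0.102, edgeR) and 0.00 (adjusted p = 0.999).

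**Figure D4:**
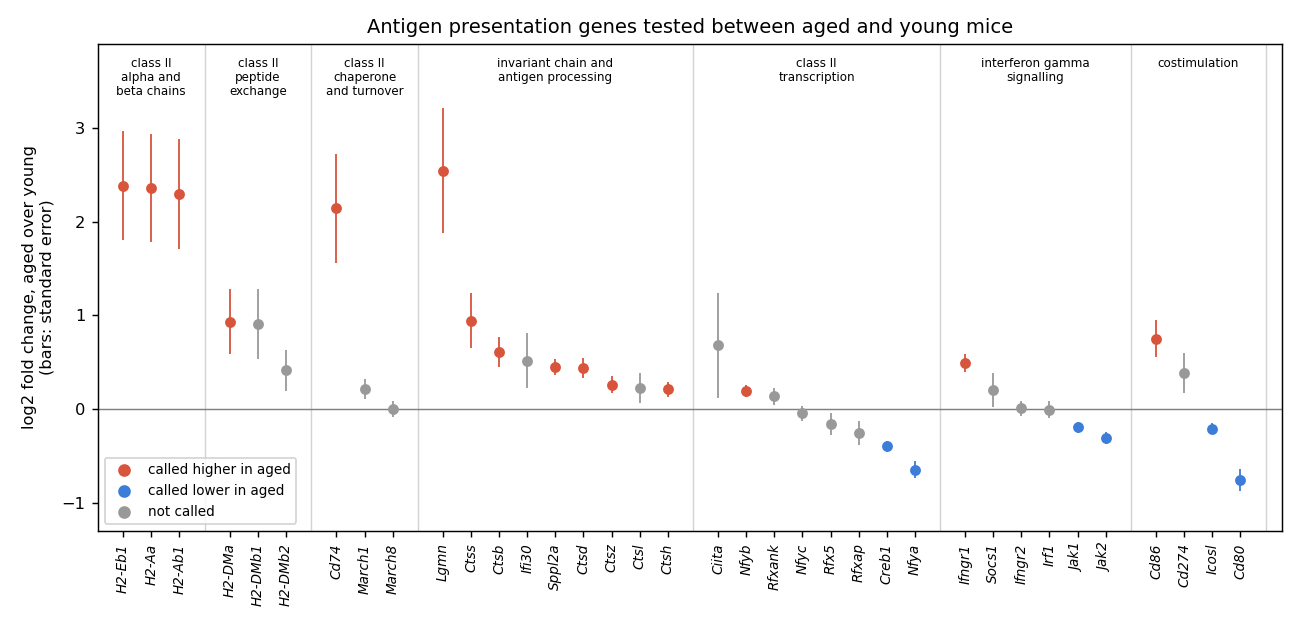
Log2 fold change, aged over young, of the tested genes reported from 7 antigen presentation lists with standard errors as bars, coloured by the edgeR call. The chains, Cd74 and Lgmn lie above 2, most protease genes lie between 0 and 1, and Nfya (-0.65) and Cd80 (-0.76) are the lowest.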

How the data were processed

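Total RNA of sorted M-MDSCs, 1 library per mouse from 6 aged and 6 young mice, had been sequenced in read pairs from stranded libraries. The deposited values were raw read counts that the authors made per gene name with featureCounts 2.0.0, counting both mates on the reverse strand over mm10 exons and keeping alignments of mapping quality 60 or more. The aligner is not given in the sources used here. Counts were analysed in R 4.3.3 with edgeR 4.0.16 (filterByExpr, TMM factors, quasi-likelihood test over 9742 genes, Benjamini-Hochberg adjustment, called at an adjusted p below 0.05). CPM use TMM-scaled totals. Ratios were compared by exact permutation with 0.5 counts added. DESeq2 1.42.0 and limma 3.58.1 (voom), other scalings and filters, a length correction, thinned libraries and mice left out in turn were alternatives. Pairs of mice of an age differed by at least 1.68 chi-square units per gene, so no library had been deposited in duplicate. Named were all 8 genes, marker sums, and the largest called rise and fall of each pathway list with its uncalled genes where at most 5. The 5 genes most like the chains were sought at a mean of at least 1 CPM, outside the 8 genes and pathway lists. Ctsb, Ctsd, Ctsh, Ctsz, Sppl2a, Ctss, Creb1, Jak1, Icosl, Itgax, Clec9a, Cd79b, Cadm1 and Clec10a were added after their values were seen. So were Runx2, Spic, Timd4, the monocyte and neutrophil genes and those under the count filter. Of the list symbols 5 were matched through RefSeq synonyms and 1 had no row. Beyond the list genes counted here, 1 gene was left out and is not reported. The genes and lists were chosen with earlier results of these data known. Labels give separate mice, and no batch or pooling.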

Additional observations from a re-analysis of the deposited data

Results flagged for a closer look

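In 44 groups of 6 mice tested for a sample far from the rest by Dixon's criterion, 7 stood apart. Its chance rate of about 1 in 20 assumes separate groups of normally spread values. Here the same mice recur, the genes move together, and levels were CPM without a log. The 7 are therefore a description and are not set against chance. In all 7 the sample was aged replicate 1. Its levels were 206 CPM for H2-Aa, 163 CPM for H2-Ab1, 146 CPM for H2-Eb1, 662 CPM for Cd74 and 8.03 CPM for Ciita. Its resident macrophage marker sum was 1130.0 CPM and its B cell marker sum was 16.8 CPM. H2-DMa, H2-DMb1 and Cd86 were also highest in this mouse among the aged but did not pass the criterion.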

How the results depend on the processing

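Positive fold changes of H2-Aa, H2-Ab1, H2-Eb1, H2-DMa, H2-DMb1, Cd74 and Cd86 were found in all 24 alternatives of each gene, and of Ciita in 20 of 22. Genes called numbered 4425 and 3157 to 4750 over the other tools, mouse subsets, scalings and filters. With limma-voom 1 of the 8 genes was called, and the uncalled included H2-Aa (1.60), H2-Ab1 (1.52), H2-Eb1 (1.70), H2-DMa (0.69) and Cd74 (1.39). DESeq2 added H2-DMb1 (0.94). H2-DMa lost its call with library totals (0.86), a length correction (0.76), the replicate block (0.92) and without aged replicates 1 and 2 (0.28), where Ciita turned to -0.42. Without young replicates 5 and 6 H2-DMa (1.07) and Cd86 (0.62) were not called. The cause was not tested. With 1 mouse left out, ranges were 1.50 to 2.58 for H2-Aa, 1.48 to 2.52 for H2-Ab1, 1.61 to 2.61 for H2-Eb1, 0.54 to 1.09 for H2-DMa, 0.48 to 1.05 for H2-DMb1, 1.14 to 2.36 for Cd74, -0.089 to 0.91 for Ciita and 0.59 to 0.87 for Cd86. Between 5 and 7 of the 8 genes were then called, and between 3804 and 4717 over all genes. The log2 ratio difference of H2-DMa to H2-DMb1 ranged from -0.14 to 0.064 and was 0.0021 with a pseudocount of 2.

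The replicate block used the 8 mice whose numbers occur at both ages and gave Cd74 1.74 (adjusted p = 0.0800, edgeR), 4 of the 8 genes called and 3446 genes called over all, against 6 and 4394 for these mice without the block. Same-numbered mice correlated at -0.16, -0.04, -0.40 and -0.39, and none correlated best with its own number. What the shared numbers mark is not given, and so few pairs cannot exclude a shared day or preparation. Ciita, at 4 to 72 counts, gave no value with a minimum of 10 counts in every mouse or in thinned libraries.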
